A study of Mus musculus with 8 samples.

Results

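The transcripts described here are those of p53 target and DNA damage response genes in the liver of obese diabetic KK-Ay mice. The gene set named Cdkn1a, Gadd45a, Mdm2, Ccng1, Bax, Bmf, Trp53, Brca1 and Kif22, and each gene was read through every probe set that the array annotation pairs with that gene symbol alone. This gave 19 probe sets of 7 genes, out of 34945 probe sets of 18193 genes annotated with 1 symbol. Trp53 and Bax are not named by such a probe set in the annotation used here and were not analysed. Male KK-Ay mice, which carry the yellow allele at the agouti locus and become obese, received AIN93G (control diet, CD) or AIN93G with 1 g/kg of a fat-soluble persimmon peel extract (PD) for 8 weeks and were 14 weeks old at sampling. Of the 7 CD and 6 PD mice, the livers of 4 mice of each diet were placed on arrays, chosen by the study for plasma total ketone bodies near the average of their group. Each array held biotin-labelled cRNA from the total RNA of 1 whole liver sample, so the values mix all cell types of the organ. Values are log2 expression indices, in which a difference of 1 is a doubling.

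The transcription factor p53 is kept low in unstressed cells by the ubiquitin ligase Mdm2 and accumulates after DNA damage and other stresses. It binds response elements made of a pair of adjacent half-sites and raises transcription of genes that halt the cell cycle (Cdkn1a, Gadd45a), return p53 to low levels (Mdm2, Ccng1) or favour apoptosis. Brca1 acts in repair of double-strand breaks by homologous recombination, and Kif22 is a chromosome-binding kinesin of mitosis. In adult liver few hepatocytes divide, and Cdkn1a is also regulated by hormones and nutrients independently of p53.

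In PD mice, Cdkn1a transcripts were lower on both of its probe sets, 1 Brca1 and 1 Kif22 probe set were lower, and the Gadd45a probe set and 1 Bmf probe set were higher. The other 13 probe sets, including all those of Mdm2 and Ccng1, were not called. These calls were made with the rank product, the study's test, which compares ranks of differences in the 16 PD and CD array pairs and takes an FDR (false discovery rate) below 0.1 as a call. It called 4 member probe sets down, where 0.26% of all 45037 tested probe sets were called down, and 2 up, where 0.213% of all were called up. The study had already reported Cdkn1a, Brca1 and Kif22 as lower and Gadd45a and Bmf as higher from these arrays. The members were chosen with earlier results of these data known, so the shares over all probe sets are no independent comparison for these counts. The moderated test of limma, which sets each difference against the spread between mice, called 0 member probe sets at an adjusted p under 0.1 and likewise 0% of all probe sets. At an unadjusted p under 0.05, limma marked 6 of the 19 member probe sets and 3.65% of all. The difference between diets was below 0 for 16 of the 19, which share genes and so are not independent, and for 52.9% of all probe sets. Array medians lay between 7.09 and 7.16, and any 2 arrays correlated at 0.991 to 0.996 over all probe sets.

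**Figure D1:**
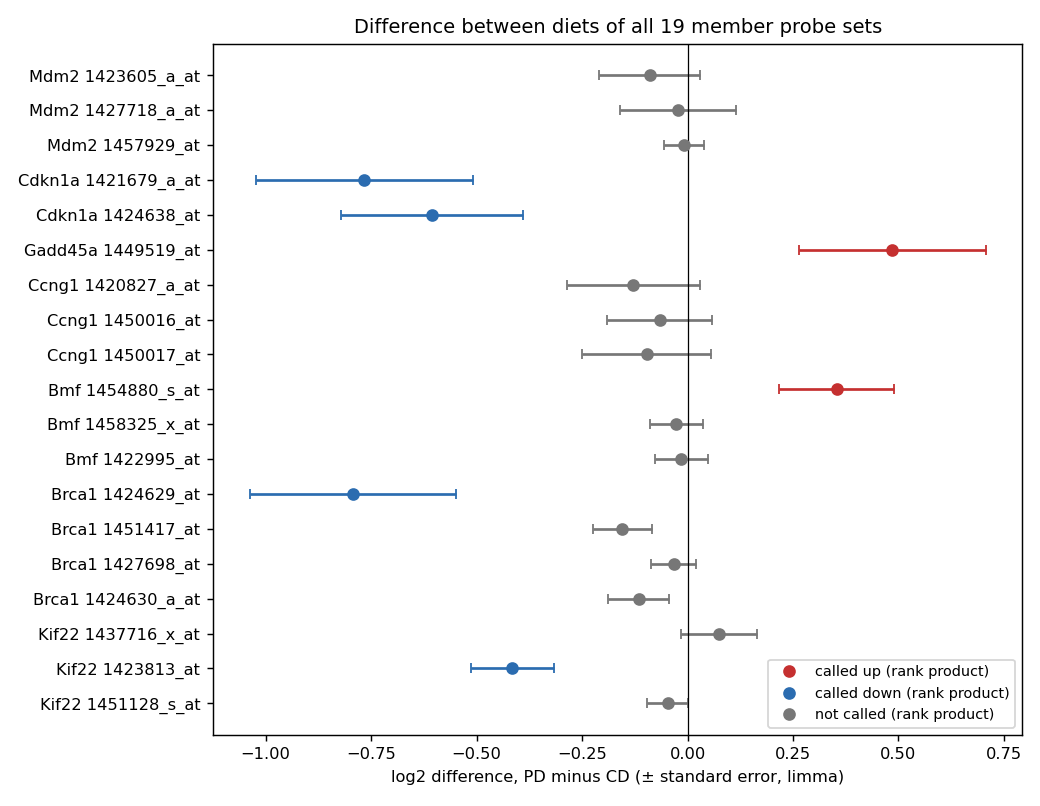
Log2 difference between diets (PD minus CD, horizontal axis) of the 19 probe sets of 7 genes, with the limma standard error as bars (n = 4 mice per diet). The called probe sets lie between -0.79 and 0.49, and the other probe sets of Brca1, Kif22 and Bmf lie between -0.15 and 0.07.

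Cdkn1a encodes p21, the inhibitor of cyclin-dependent kinases that halts the cell cycle in G1. Its probe set 1421679_a_at measured 9.16, 8.33, 8.64 and 8.43 in CD replicates 1 to 4, and 8.72, 7.51, 7.68 and 7.60 in PD replicates 1 to 4. PD replicate 1 lay within the CD range, and the other 3 PD mice lay below every CD mouse. The mean fell from 8.64 ± 0.37 (SD, n = 4) to 7.88 ± 0.57 (SD, n = 4), a log2 difference of -0.77 ± 0.26 (SE) or 1.70-fold, with a rank product FDR of 0.0050. Here and below, SE is the moderated standard error of limma, which draws on the spread of all probe sets. For probe sets of large spread, such as this one, it is smaller than the SDs alone would give. Over the 70 splits of the 8 mice, the exact two-sided permutation test gave p = 0.114, where the smallest possible value was 0.0286. The limma p was 0.0131 before and 0.998 after Benjamini-Hochberg adjustment. The second probe set, 1424638_at, measured 9.02, 8.25, 8.55 and 8.38 in CD mice and 8.60, 7.58, 7.81 and 7.79 in PD mice. It followed the first across mice (r = 0.996, n = 8) and differed by -0.61 ± 0.21 between diets (rank product FDR 0.0061). The call on 1421679_a_at was kept whichever single mouse was left out, with a log2 difference of -1.05 to -0.59, whereas 1424638_at was not called without CD replicate 1. The calls on both, like those on Brca1 1424629_at and Kif22 1423813_at, ended when each PD array was set against the mean of the CD arrays, a setting under which 0 of all probe sets were called down. In RNA of whole liver, fewer cells of a type and less RNA per cell cannot be told apart.

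Gadd45a, a stress-induced protein that interacts with p21 and PCNA, went the opposite way. Its only probe set, 1449519_at, measured 7.62, 8.02, 8.39 and 8.81 in CD replicates 1 to 4 and 8.54, 8.59, 8.54 and 9.11 in PD replicates 1 to 4. The CD mice were spread widely, with CD replicate 4 above 3 of the PD mice, and the diets overlapped. The mean rose from 8.21 ± 0.51 to 8.69 ± 0.28 (SD, n = 4 each), a log2 difference of 0.49 ± 0.22 (SE) with a rank product FDR of 0.0149. The exact permutation p was 0.2 and the unadjusted limma p 0.0513. Leaving out CD replicate 1 or PD replicate 4 ended the call, and the smallest difference with 1 mouse left out was 0.29.

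**Figure D2:**
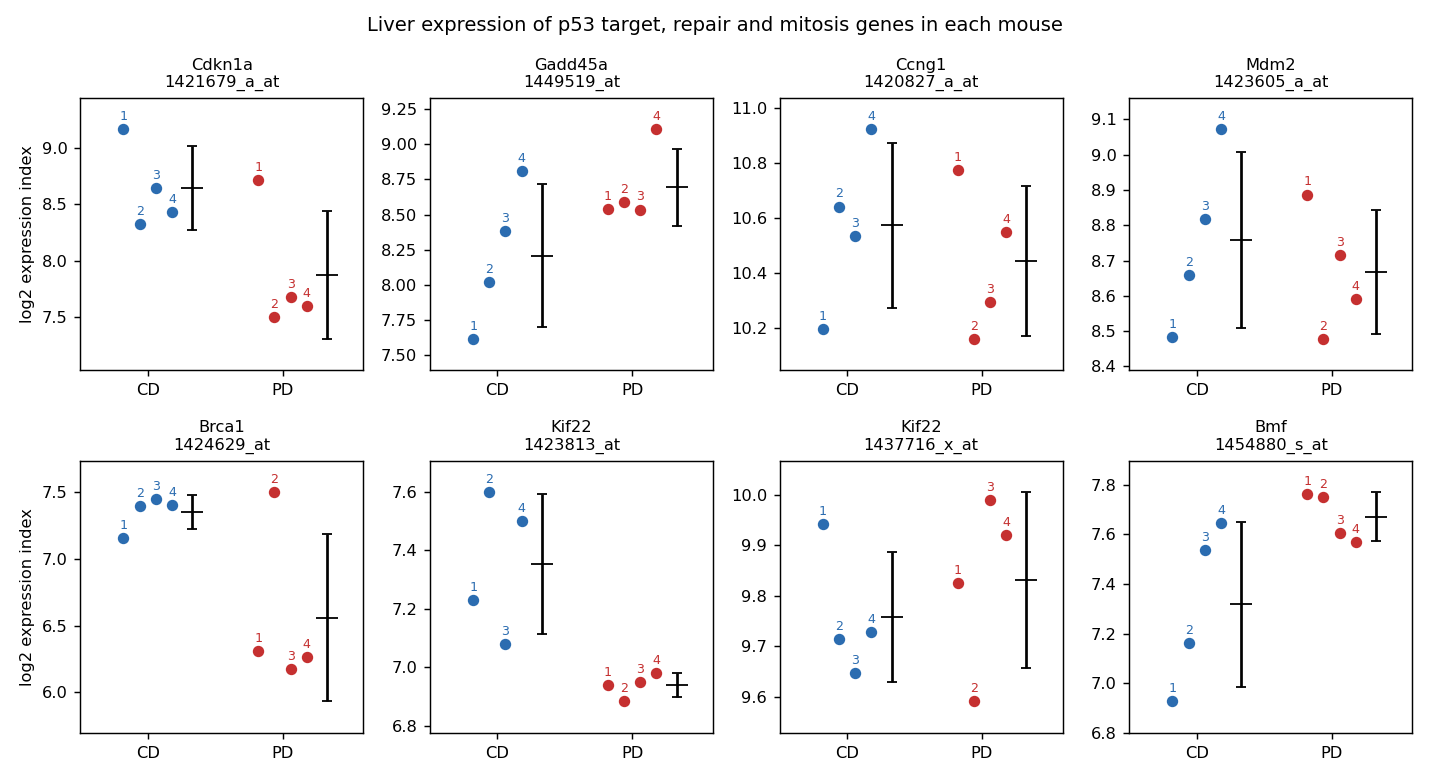
Log2 expression index of 8 probe sets in each mouse (points, numbered by replicate, CD in blue and PD in red) with the mean and SD of each diet (n = 4, black). Cdkn1a separates 3 PD mice from all others, Kif22 1423813_at separates the diets, and Ccng1 and Mdm2 span the same range in both. Each panel has its own vertical range, which does not start at 0.

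Mdm2 and Ccng1 carry the feedback on p53, Mdm2 as its ubiquitin ligase and Ccng1 (cyclin G1) through the phosphatase that activates Mdm2. The Ccng1 probe set of highest level, 1420827_a_at, measured 10.19, 10.64, 10.53 and 10.92 in CD mice and 10.78, 10.16, 10.29 and 10.55 in PD mice. The Mdm2 probe set of highest level, 1423605_a_at, measured 8.48, 8.66, 8.82 and 9.07 in CD mice and 8.89, 8.48, 8.72 and 8.59 in PD mice. For both genes CD replicate 4 was highest among CD mice and PD replicate 1 among PD mice, while CD replicate 1 and PD replicate 2 were lowest. The 3 Ccng1 probe sets differed between diets by -0.13, -0.07 and -0.10, and the 3 Mdm2 probe sets by -0.09, -0.02 and -0.01. The standard errors were 0.16, 0.12 and 0.15 for Ccng1 and 0.12, 0.14 and 0.05 for Mdm2, so that for both genes a difference of the size of Cdkn1a's lay several standard errors away. The Mdm2 probe set of smallest standard error, 1457929_at, was at the 10.7th percentile of all probe sets, where signal over background limits what can be read. Its r with 1423605_a_at and 1427718_a_at was -0.37 and -0.38. None of these Ccng1 and Mdm2 probe sets was called by the rank product or reached an unadjusted limma p under 0.05.

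Sequence upstream of these genes was taken from RefSeq (GRCm38.p6), 250 bases before each annotated start, because Cdkn1a and Ccng1 were the members with a p53 response element there. The search allowed at most 1 mismatch over a pair of adjacent half-sites without spacer, on both strands, and such an element stood in 29 of 32851 promoter windows (0.0883%). The Cdkn1a window at chr17:29090729-29090978 (plus strand) held it 51 bases before the start, and the Ccng1 window at chr11:40755287-40755536 (minus strand) held it 195 bases before the start. Capitals mark the element, and both sequences are written 5′ to 3′ towards the gene.
Cdkn1a: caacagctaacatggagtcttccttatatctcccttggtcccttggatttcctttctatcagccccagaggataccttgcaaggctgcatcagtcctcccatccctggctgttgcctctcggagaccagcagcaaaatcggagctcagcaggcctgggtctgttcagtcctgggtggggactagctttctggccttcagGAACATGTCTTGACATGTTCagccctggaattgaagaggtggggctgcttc
Ccng1: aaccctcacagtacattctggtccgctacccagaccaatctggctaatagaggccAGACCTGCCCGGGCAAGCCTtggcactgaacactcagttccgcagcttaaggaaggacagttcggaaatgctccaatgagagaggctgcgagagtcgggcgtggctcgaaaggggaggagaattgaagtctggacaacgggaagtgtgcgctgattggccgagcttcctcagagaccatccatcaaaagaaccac
A second Cdkn1a start lies 2790 bases further along the gene, and its window held no such element. The windows of Gadd45a, Mdm2, Bmf, Brca1 and Kif22 held none either, which says only that these letters are not in that stretch. Of the 21 p53 targets with a window, 3 held an element (Ccng1, Cdkn1a and Rps27l).

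Bmf, a pro-apoptotic BH3-only member of the BCL2 family, was higher on 1 of its 3 probe sets. The probe set 1454880_s_at measured 6.93, 7.16, 7.54 and 7.65 in CD mice and 7.76, 7.75, 7.60 and 7.57 in PD mice. The 4 PD mice lay close together at the upper end of the CD range, and CD replicate 4 lay above 2 of them. The log2 difference was 0.35 ± 0.14 (SE), with a rank product FDR of 0.0927 and an exact permutation p of 0.114. The call was lost in 6 of the 8 runs that left out 1 mouse. The other probe sets, 1458325_x_at and 1422995_at, differed by -0.03 and -0.02 and were not called, and the suffix of 1454880_s_at marks a probe set that can detect several transcripts.

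The lowest rank product FDR among the member probe sets was that of Brca1 1424629_at. It measured 7.16, 7.40, 7.45 and 7.40 in CD replicates 1 to 4 and 6.31, 7.50, 6.17 and 6.26 in PD replicates 1 to 4. PD replicate 2 lay above every CD mouse, and the other 3 PD mice lay below all of them, so that the PD values fell in 2 separate levels. The mean fell from 7.35 ± 0.13 to 6.56 ± 0.63 (SD, n = 4 each), a log2 difference of -0.79 ± 0.24 (SE) or 1.73-fold, with a rank product FDR of 0.0018 and an exact permutation p of 0.143. With all 8 mice the limma p was 0.00825 before and 0.998 after Benjamini-Hochberg adjustment. Without PD replicate 2 the difference was -1.11, and limma then called this probe set at an adjusted p of 0.00237. This was the only limma call among the members in any run that left out 1 mouse. That run removes the PD mouse that went the other way, and with it most of the spread, so its p is no test of the diet. The other 3 Brca1 probe sets differed by -0.15 (1451417_at), -0.03 (1427698_at) and -0.12 (1424630_a_at), each with PD lower and none called. Of these, 1451417_at had an unadjusted limma p of 0.0496 (adjusted 0.998). All 4 Brca1 probe sets had mean levels in the lower part of the array, from the 9.04th to the 42.6th percentile of all probe sets. The PD mouse that was high in Brca1 was not the PD mouse that was high in Cdkn1a, which was PD replicate 1.

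Kif22 was the only member with a probe set on which the diets did not overlap, with PD wholly below CD, a separation found for 1.02% of all probe sets. The opposite separation was seen for 0 of the 19 member probe sets and 1.06% of all. The probe set 1423813_at measured 7.23, 7.60, 7.08 and 7.50 in CD mice and 6.94, 6.88, 6.95 and 6.98 in PD mice. The PD mice lay within a narrow band just below the lowest CD mouse. This probe set's mean level was at the 50.6th percentile of all probe sets, and its PD mean lay below the array medians. The mean fell from 7.35 ± 0.24 to 6.94 ± 0.04 (SD, n = 4 each), a log2 difference of -0.42 ± 0.10 (SE) with a rank product FDR of 0.0356, and the exact permutation p was 0.0286, the smallest that 4 against 4 mice can give. The rank product call was lost without CD replicate 1, 2 or 4. The probe set 1437716_x_at, whose mean of 9.79 was the highest of the gene and whose suffix marks possible detection of other genes, differed by 0.07 in the opposite direction. The probe set 1451128_s_at, with a mean level at the 14.9th percentile, differed by -0.05, and neither was called.

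The Kif22 promoter is shown because genes of mitosis commonly carry a CHR element (TTTGAA) near a CCAAT box in the promoter. In the window at chr7:127042421-127042670 (GRCm38.p6, minus strand), capitals mark TTTGAA and CCAAT or their reverse complements, which do not overlap each other.
Kif22: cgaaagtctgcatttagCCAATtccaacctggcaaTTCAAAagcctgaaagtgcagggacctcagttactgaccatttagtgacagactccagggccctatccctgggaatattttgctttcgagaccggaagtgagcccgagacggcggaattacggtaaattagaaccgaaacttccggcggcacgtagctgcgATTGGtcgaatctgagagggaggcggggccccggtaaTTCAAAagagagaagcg
The CHR letters began 215 and 17 bases before the start and the CCAAT letters 233 and 54 bases before it. TTTGAA occurred on either strand in 17.9% of all windows, CCAAT in 37.4% and both in 6.95%.

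The wider p53 target list held 28 measured genes, each represented by its probe set of highest mean. Of these, Gadd45a was called up, and Cdkn1a and Btg2 were called down, where 51 of all 18193 genes were called up and 65 down. The study had already reported each of the called genes in the same direction from these arrays. Btg2, an antiproliferative early response gene, fell by 0.41 on the log2 scale (SE 0.20, rank product FDR 0.0531). Its CD mice lay between 8.72 and 9.68 and its PD mice between 8.51 and 9.06, so that the diets overlapped. Trp53inp1, a stress-induced nuclear protein, had a difference of -0.30 ± 0.11 (SE) with an FDR of 0.127 and was not called. The other listed targets, among them the apoptosis genes Bbc3 and Pmaip1 and the repair gene Xpc, were not called. The list had 19 genes lower and 9 higher, with a median log2 difference of -0.04 against -0.01 over all genes, of which 53.5% were lower. When 1 mouse was left out, the list had 1 to 4 genes called down and 0 to 1 called up. Without PD replicate 1 the genes called down were Cdkn1a, Trp53inp1, Btg2 and Ddit4, and without CD replicate 1 Cdkn1a was the only call.

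Genes around p53 and the wider repair and division machinery showed few calls. Those given below were all members that the study had already reported. Over all genes, 0.280% were called up and 0.357% down. Of 17 measured regulators of p53, 0 were called by the rank product and 0 by limma at an unadjusted p under 0.05, and the 2 lowest limma p-values belonged to Usp7, a deubiquitinase (-0.10), and Kat5, an acetyltransferase (0.08). Among 8 cyclin-dependent kinase inhibitors Cdkn1a was called, and the next was Cdkn2b at -0.12. Among 6 GADD stress genes Gadd45a was called, and Gadd45b differed by -0.08. Of 14 BCL2 family genes Bmf was called up, and Bcl2l11, the BH3-only protein Bim, differed by -0.14. Homologous recombination and Fanconi repair held 23 measured genes with Brca1 called down, 12 genes higher and 11 lower. Fancd2 of the Fanconi pathway differed by -0.17 ± 0.06 (SE). Nbn, which senses double-strand breaks in the MRN complex, differed by 0.10 ± 0.05 (SE). All PD mice lay above all CD mice for Nbn (exact permutation p = 0.0286), a separation found for 1.06% of all probe sets. Neither Fancd2 nor Nbn was called, and with Brca1 they were the 3 genes of the list at an unadjusted limma p under 0.05. Over all 18193 genes 772 were, and Brca1 was a member chosen with earlier results known. Of 21 excision and mismatch repair genes, 0 were called by the rank product and 0 reached an unadjusted limma p under 0.05, with Mgmt, the alkylguanine repair enzyme, at -0.14 and Ddb1, the adaptor that joins the damage-recognizing Ddb2 to a ubiquitin ligase, at 0.14. Of 28 mitosis and replication genes, 0 were called on the representative probe set and 0 reached an unadjusted limma p under 0.05, and 1, Kif22, was called down on another probe set. The kinase gene Plk1 differed by -0.10 and the replication helicase gene Mcm7 by -0.12. For Kif2c (-0.08), all PD mice lay below all CD mice (exact permutation p = 0.0286), a separation found for 1.02% of all probe sets.

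Whether mice with more Cdkn1a mRNA also had more of other p53 target mRNAs was examined over the 8 mice with the remaining 27 targets. Pearson's r had a median of 0.24, between -0.67 for Gadd45a and 0.75 for Ddit4, and 21 of the 27 were above 0, while the median over all probe sets was near 0. As deviations from the mean of each diet the median was 0.17, and Spearman's rho had a median of 0.26. The highest r were those of Ddit4, an inhibitor of mTORC1 signalling (0.75), Trp53inp1 (0.70) and Ei24, a membrane protein of the endoplasmic reticulum (0.58), and the lowest those of Gadd45a (-0.67), Sesn1, a stress-induced sestrin (-0.60), and Ercc5, a repair endonuclease (-0.48). By the exact permutation test over 40320 pairings, 1 of the 27 reached an unadjusted p under 0.05 (Ddit4, p = 0.0296, rho = 0.79) and 0 after Benjamini-Hochberg adjustment over all probe sets, where 5.68% of all probe sets had an unadjusted p under 0.05 with Cdkn1a. An r of 0.5 or more was reached by 6 of the 27 and by 10.1% of all probe sets. Without CD1 and PD2, the mice farthest from the median of Cdkn1a, the r of Ddit4 was 0.39, that of Trp53inp1 0.92 and that of Ei24 0.87. The median of the 27 was then 0.39, with 13 at 0.5 or more against 13.8% of all probe sets.

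Cdkn1a and Ccng1 correlated at r = 0.25 (exact permutation p = 0.542, rho = 0.26, n = 8 mice) and at 0.11 as deviations from the diet means. Cdkn1a and Mdm2 correlated at r = 0.26 (exact permutation p = 0.530, rho = 0.40, n = 8 mice). These values rested on CD replicate 1, which had the highest Cdkn1a of all mice and the lowest Gadd45a, and on PD replicate 2, which had the lowest Cdkn1a. Without CD replicate 1 the median r of the 27 targets with Cdkn1a was 0.56, with 15 of 27 at 0.5 or more, and the r was 0.75 with Ccng1 and 0.75 with Mdm2. Without PD replicate 2 the median was -0.01, and the r was -0.01 with Ccng1 and 0.04 with Mdm2. For the median, leaving out each of the other 6 mice gave 0.13 to 0.23.

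**Figure D3:**
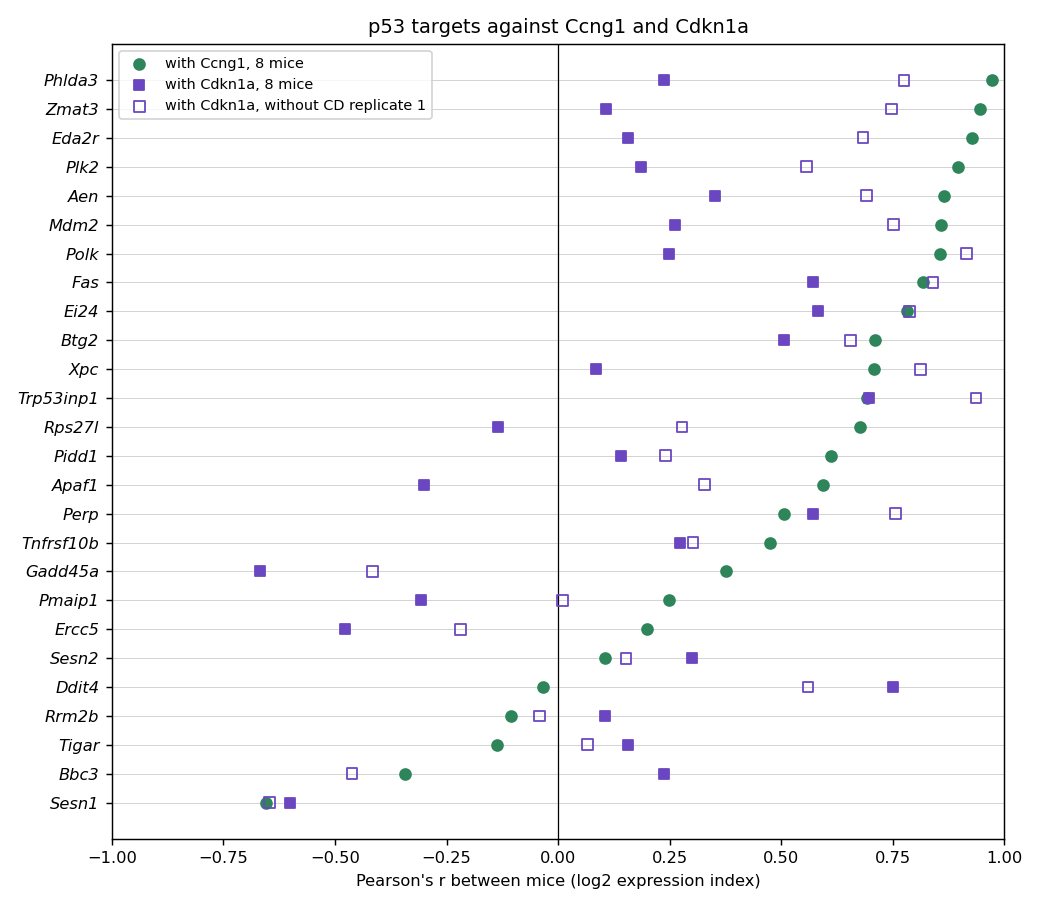
Pearson's r between mice of the p53 targets with Ccng1 (circles) and with Cdkn1a (filled squares) over 8 mice, and with Cdkn1a without CD replicate 1 (open squares), ordered by r with Ccng1. Phlda3, Zmat3, Eda2r and Mdm2 lie above 0.85 with Ccng1 and below 0.3 with Cdkn1a over 8 mice, and at 0.68 to 0.78 with Cdkn1a without CD replicate 1.

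Ccng1 in place of Cdkn1a, a reading added after the values were seen, gave a median r of 0.61 over its 27 other targets, with 16 at 0.5 or more, where 9.60% of all probe sets were. The median stayed between 0.50 and 0.68 whichever mouse was left out and was 0.70 as deviations from the diet means. Ccng1 rose and fell between mice with Phlda3, which restrains Akt (r = 0.97), Zmat3, an RNA-binding protein (0.95), Eda2r, a receptor of the tumour necrosis factor family (0.93), the kinase Plk2 (0.90), Aen, an apoptosis-linked nuclease (0.86), Mdm2 (0.86) and Polk, a translesion polymerase (0.86). The exact permutation p of Ccng1 with Mdm2 was 0.00729 (rho = 0.81, n = 8 mice) and with Phlda3 0.000372 (rho = 0.90). With Benjamini-Hochberg adjustment over all probe sets, 0 of the 27 passed, and 10 had an unadjusted p under 0.05, as did 5.14% of all probe sets. Zmat3 measured 8.24, 8.84, 8.74 and 9.03 in CD mice and 9.17, 8.42, 8.47 and 8.83 in PD mice, and its means were equal between diets (difference 0.01 ± 0.19, SE). Phlda3 measured 7.35, 7.85, 7.82 and 8.30 in CD mice and 8.20, 7.48, 7.43 and 7.76 in PD mice. Like Ccng1, both were high in CD replicate 4 and PD replicate 1 and low in CD replicate 1, so that their spread lay within each diet.

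**Figure D4:**
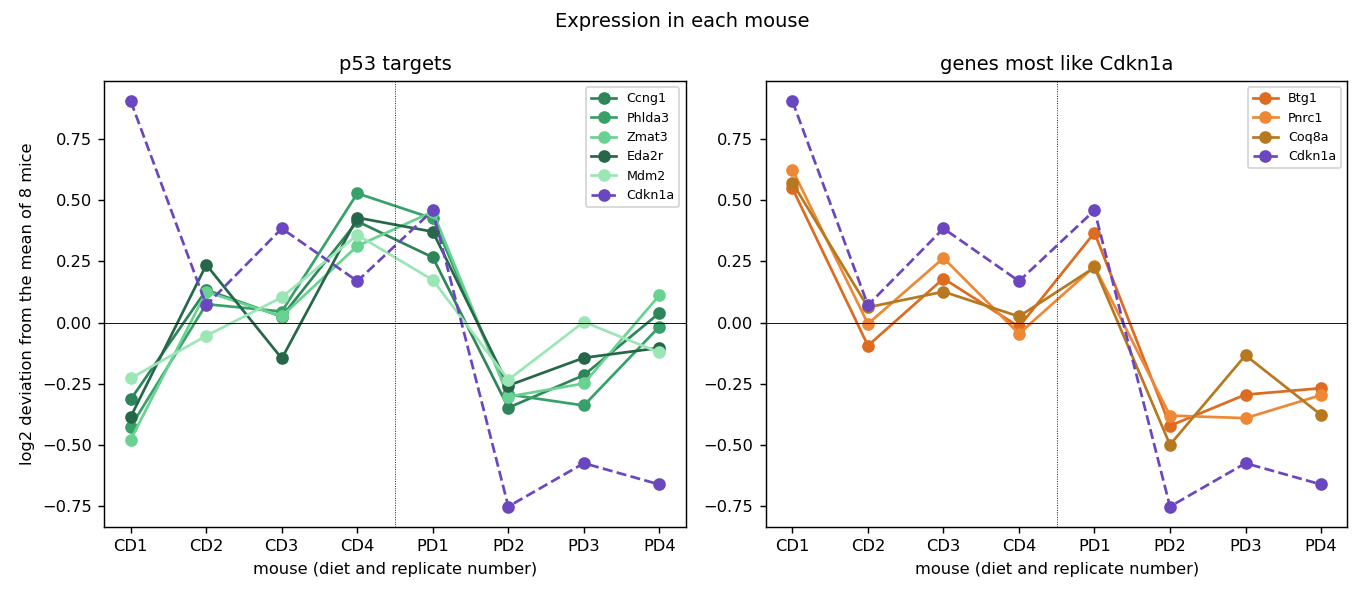
Log2 deviation of each gene from its mean over the 8 mice (vertical axis) in each mouse (horizontal axis), with 5 p53 targets and Cdkn1a on the left and 3 of the genes most like Cdkn1a on the right. Lines join the values of 1 gene and imply no order of mice. In CD1 Cdkn1a is at its highest while the 5 other targets lie below their means.

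The genes whose pattern over the 8 mice was most like that of Cdkn1a were, by Pearson's r among probe sets at or above the median level, Safb, a nuclear scaffold protein (0.97), Pnrc1, a nuclear receptor coactivator (0.97), Btg1, an antiproliferative relative of Btg2 (0.96), Coq8a of coenzyme Q synthesis (0.96) and Cluh, which binds mRNAs of mitochondrial proteins (0.96). As deviations from the diet means, the order was Btg1 (0.99), the receptor Notch1 (0.99), Safb (0.98), the adaptor Crk (0.98) and the kinase Cdk12 (0.98). These are the top of a search over the whole table and carry no test. Pnrc1 measured 11.01, 10.38, 10.65 and 10.34 in CD mice and 10.62, 10.01, 10.00 and 10.09 in PD mice. Btg1 measured 10.79, 10.14, 10.42 and 10.22 in CD mice and 10.60, 9.81, 9.94 and 9.97 in PD mice. As for Cdkn1a, CD replicate 1 was highest and PD replicate 1 lay far above the other PD mice, while the order of the remaining mice differed between the genes. Pnrc1, Btg1 and Coq8a were themselves called down, with rank product FDRs of 0.0307, 0.0915 and 0.0498, whereas Safb (-0.05) and Cluh (-0.09) spanned a much narrower range and were not called.

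Glucocorticoid-responsive liver genes were read beside Cdkn1a because that hormone also acts on stress and cell cycle genes in liver. The study had already listed Tsc22d3, Tat, Igfbp1 and Errfi1 as lower in these arrays, under the receptor NR3C1, which it predicted to be inhibited. Under the same receptor it also placed Cdkn1a, Brca1 and Btg1 as lower and Gadd45a and Bmf as higher. The glucocorticoid list read here was chosen with earlier results of these data known, so the shares over all genes are no independent comparison for it. The mean was lower in PD mice for each of the 12 listed genes (median log2 difference -0.15), where 53.5% of all genes were lower, and 4 were called down, where 0.357% of all genes were. These were Tat (tyrosine aminotransferase), Tsc22d3 (GILZ), Zbtb16 (a zinc finger repressor) and Igfbp1 (a binding protein of insulin-like growth factors). Their differences were -0.44 ± 0.12, -0.40 ± 0.23, -0.55 ± 0.59 and -0.15 ± 0.33 (SE), in that order. Those of Zbtb16 and Igfbp1 were smaller than their SE, with unadjusted limma p of 0.373 and 0.665. Tat measured lower in every PD mouse than in any CD mouse (exact permutation p = 0.0286), while the other 3 overlapped between diets. Errfi1, an inhibitor of epidermal growth factor receptor signalling, differed by -0.25 on its representative probe set without a call and was called down on another probe set. The r with Cdkn1a over mice had a median of 0.44 in this list, and 0.32 as deviations from the diet means. Of the 12 genes, 4 had an r of 0.5 or more, as did 10.1% of all probe sets. By the exact permutation test 1 had an unadjusted p under 0.05, as did 5.68% of all. CD replicate 1 was highest both for Cdkn1a and for the mean of this list. How these r change with 1 mouse left out was not tested. The list lost all 4 calls without CD replicate 1, without CD replicate 2 or without CD replicate 3, had 2 without PD replicate 4 and had 7 without PD replicate 2.

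Markers of liver cell types were compared for the whole list of each type. The mean level of 6 hepatocyte markers was 13.5 to 13.6 in CD mice and 13.3 to 13.5 in PD mice, far above the array medians. Tat was the hepatocyte marker called down, and Col3a1 was called up among 7 stellate cell and fibroblast markers, whose mean level was 8.29 to 8.56 in CD and 8.45 to 8.59 in PD mice. Lrat, which esterifies retinol in stellate cells, differed by 0.28 with an unadjusted limma p of 0.0130 and was not called. Not all 7 moved together: 4 of these markers were higher under PD and 3 (Col1a1, Des and Reln) were lower. The median of their differences was 0.05. Among 7 Kupffer cell and macrophage, 6 endothelial, 5 cholangiocyte, 4 B and plasma cell, 5 T and NK cell, 4 neutrophil and 3 erythroid markers, 0 were called by the rank product. Over all genes 0.280% were called up and 0.357% down, so a count of 0 in lists this short says little about these cell types. Of these markers, S100a9 of neutrophils (-0.27) had an unadjusted limma p under 0.05, and limma called 0 after adjustment. The part of cell composition in the differences above was not tested.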

How the data were processed

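Liver RNA of 8 KK-Ay mice (1 array each) was measured on 8 Affymetrix mouse 3′ expression arrays. The authors deposited log2 model-based expression indices for 45101 probe sets, with R 2.7.2 named in the submitters' processing notes. How arrays were normalized against each other was not given in the sources used here. The 64 control probe sets were left out, and 45037 were tested. Of these, 34945 had 1 gene symbol, 932 several and 9160 none in the platform annotation. Arrays carry no read depth, and their number limits the precision.

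The rank product, its 1000 permutations and the FDR under 0.1 followed the study's methods. The 16 array pairs and permutations that shuffle the values within each array were chosen here. It ran in Python 3.11.15 with numpy 2.4.6. Moderated tests used limma 3.58.1 in R 4.3.3 with Benjamini-Hochberg adjustment over all 45037 probe sets. Single probe sets also received a two-sided exact permutation test over mice, and correlations an exact test over all pairings of the 8 mice. All scripts were tested on simulated data. The t-test of the methods was run as an alternative.

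All members were described with every probe set of that 1 symbol. From each pathway list, the genes with a called probe set and the 2 of lowest limma p were named, with the p53 targets of the 3 highest and 3 lowest r with Cdkn1a and the 5 genes most like it. Genes in lists were represented by the probe set of highest mean. Targets named for their r with Ccng1, the values of Zmat3 and Phlda3, and the genes Nbn, Kif2c, Lrat and S100a9 were chosen after their values were seen. The members and lists were chosen with earlier results of these data known. Alternatives covered thresholds, normalization, filters, probe set choice, the null of the rank product and each mouse left out. Promoter windows came from RefSeq (GRCm38.p6).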

Additional observations from a re-analysis of the deposited data

Results flagged for a closer look

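In 5 of the 38 groups of 4 mice tested over the member probe sets, 1 mouse stood apart by Dixon's criterion, where chance gives about 1 in 20. Cdkn1a 1421679_a_at measured 8.72 in PD replicate 1, and the other PD mice lay between 7.51 and 7.68. Gadd45a 1449519_at measured 9.11 in PD replicate 4, against 8.54 to 8.59 in the others. Brca1 1424629_at stood apart in both diets. PD replicate 2 measured 7.50 where the remaining PD mice spanned 6.17 to 6.31, and CD replicate 1 measured 7.16 where the remaining CD mice spanned 7.40 to 7.45. Kif22 1451128_s_at measured 6.41 in PD replicate 1, against 6.28 to 6.30 in the others. The 5 values came from 4 different mice.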

How the results depend on the processing

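Among the member probe sets, 4 called down and 2 called up, the number called down was 10 when ranks were shuffled in each pair and 0 when each PD array was set against the CD mean, and the causes were not tested. Over all 45037 probe sets these settings called 3766 down and 3639 up, and 0 down and 157 up. The number called up was 1 at an FDR under 0.05, 1 with dim probe sets left out and 1 without probe sets of suffix _s_at or _x_at, which removes the Bmf probe set. With dim probe sets left out, 3 were called down, because Brca1 1424629_at (mean level 6.96) lay below that filter at 7.13. Leaving out 1 mouse gave 2 to 4 probe sets called down, with 2 without CD replicate 1, and 0 to 2 called up, with 0 without CD replicate 1 or PD replicate 4. Limma calls were 0 in every other setting and 0 to 1 with 1 mouse left out. The methods' t-test marked 2 member probe sets at an unadjusted p under 0.05 and 0 after Benjamini-Hochberg adjustment. No member probe set changed direction and kept a call. Over all probe sets, 96 up and 117 down, leaving out 1 mouse gave 27 to 190 up and 16 to 206 down (16 without CD replicate 1).

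The median r of Cdkn1a with other p53 targets, 0.24, was -0.014 to 0.56 with 1 mouse left out (0.56 without CD replicate 1, -0.014 without PD replicate 2). Among p53 targets, leaving out 1 mouse gave 1 to 4 genes called down, 0 to 1 called up and a median log2 difference of -0.097 to 0.013.

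With the replicate number as a replicate block, 1 member probe set was called up and the median r of Cdkn1a with other p53 targets was 0.74. That r rests on only 4 blocks, where large values arise easily, and no median over all probe sets is given for this setting. It therefore cannot show whether Cdkn1a varied with the other targets. Mice of equal number did not deviate together (r of -0.06 to -0.0003 for the 4 pairs), so the numbers were not taken as pairs, and the block changed no other member call.

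The 4 Brca1 probe sets lay below the median level of the arrays (42.6th percentile at most), where signal over background limits what can be read.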
